A study of Mus musculus with 2 samples.

Results

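The genes described here belong to the hypoxia-inducible factor (HIF) pathway, and they were compared between BMSC-Adipo, a murine bone marrow stromal line that forms adipocytes, and BMSC-Osteo, a line that forms osteoblasts. The members were 10 genes taken by symbol: the alpha subunits *Hif1a* and *Epas1*, the beta subunit *Arnt*, the prolyl hydroxylases *Egln1*, *Egln2* and *Egln3*, and the HIF-responsive genes *Ndrg1*, *Bnip3*, *Adm* and *Car12*. All probe sets whose annotated symbol equalled a member were taken, 27 of 45101 probe sets on the array, and the 10 genes stand among 20706 read by a probe set that names a single gene. The labels call the lines mMSC-Adipo and mMSC-Bone. Both are spontaneously immortalized clones, so each line stands for a single clone, and both come from C57BL/6 mice that were Beta-actin-GFP+ and ApoE(-/-). Both were grown in DMEM with 12% FBS and penicillin and streptomycin per the labels, without differentiation medium, and no low-oxygen treatment is named. The share of FBS differs between the labels and the published methods. RNA of triplicate cultures was pooled and 8 ug went to 1 Affymetrix array per line. Values are log2 levels, and a difference is the level in BMSC-Adipo minus that in BMSC-Osteo, so a difference of 1 is 2-fold. With 1 array per line there was no replicate, hence no error, test or p-value, and genes were called by a size rule of 2-fold alone.

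HIF is a transcription factor made of an oxygen-regulated alpha subunit and a stable beta subunit. In the presence of oxygen, prolyl hydroxylases mark the alpha subunits, which the von Hippel-Lindau ubiquitin ligase then sends to degradation, and at low oxygen the complex accumulates and binds hypoxia response elements. The alpha subunits are controlled mainly as proteins, and the arrays read only RNA. In the skeleton the pathway is known for its part in osteoblasts, in the vessels of bone and in the survival of cells in poorly oxygenated marrow.

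The lines carried the markers of their labels. All 5 adipocyte lineage markers (*Adipoq*, *Pparg*, *Cebpa*, *Fabp4* and *Lpl*) were at least 2-fold higher in BMSC-Adipo, with differences of 4.05 to 9.10, and 5 of 6 osteoblast lineage markers were at least 2-fold higher in BMSC-Osteo, the exception being *Runx2* (0.28). *Apoe* had levels of 3.73 in BMSC-Adipo and 4.11 in BMSC-Osteo, both under the brightness filter of 4.20, which is the 30th percentile of mean levels over genes. Whether its probe set lies in the deleted part is unknown from the labels, paper and files, so this checks nothing about the deletion. The gap between the 3' and 5' control probe sets was close on both arrays for *Actb* (0.29 in BMSC-Adipo and 0.35 in BMSC-Osteo) and *Gapdh* (-0.30 and -0.32 in the same order), and wider in BMSC-Adipo for *Pcx* (1.36 against 0.78 in BMSC-Osteo). In these bulk samples fewer cells of a type and less RNA per cell cannot be told apart.

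Of the alpha subunits, *Epas1* was at least 2-fold higher in BMSC-Adipo, while *Hif1a* had a positive difference within 2-fold with its brightest probe set. *Epas1*, which encodes HIF-2 alpha, an alpha subunit first described in endothelium, had a level of 11.1 in BMSC-Adipo and 3.89 in BMSC-Osteo with its brighter probe set, 1435436_at. This difference of 7.24 (151-fold) ranked 6 of 14497 genes past the filter toward BMSC-Adipo. Because the level in BMSC-Osteo lay under the filter, the size of the fold depends on the array's floor, and the difference was 5.60 with 32 added on the linear scale. The other probe set, 1449888_at, gave 5.96 in BMSC-Adipo and 4.84 in BMSC-Osteo, a difference of 1.12. Both probe sets thus passed the 2-fold rule in the same direction but differed from each other by 6.12, against a pooled SD of 0.40 between probe sets of a gene over 6412 genes. Which transcripts they read is not given in the deposited annotation.

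Since *Epas1* is abundant in endothelium, endothelial markers were examined beside it. None of 8 (*Pecam1*, *Cdh5*, *Tek*, *Tie1*, *Emcn*, *Kdr*, *Cldn5* and *Vwf*) was 2-fold apart, 3 of them (*Cdh5*, *Kdr* and *Cldn5*) passed the brightness filter, and the levels of all 8 spanned 2.71 to 5.71 in BMSC-Adipo and 2.79 to 5.71 in BMSC-Osteo. The log2 of their summed linear level was 7.10 in BMSC-Adipo and 7.12 in BMSC-Osteo. *Cdh5*, which encodes VE-cadherin, had 4.17 in BMSC-Adipo and 4.47 in BMSC-Osteo, and *Pecam1*, *Tie1*, *Tek*, *Emcn* and *Vwf* lay under the filter. Of 5 macrophage and blood markers, *Cd68* alone was at least 2-fold apart, at 5.40 in BMSC-Adipo and 3.99 in BMSC-Osteo, and *Ptprc*, the pan-leukocyte gene, lay under the filter.

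*Hif1a*, which encodes HIF-1 alpha, was read by 4 probe sets, and all were brighter in BMSC-Adipo. The brightest, 1427418_a_at, had 11.9 in BMSC-Adipo and 11.1 in BMSC-Osteo, a difference of 0.87 (1.83-fold) that fell short of the 2-fold rule. Probe set 1416035_at had 9.88 in BMSC-Adipo and 8.27 in BMSC-Osteo (1.61), 1448183_a_at had 9.64 in BMSC-Adipo and 8.58 in BMSC-Osteo (1.06), and the dimmest, 1431981_at, had 4.89 in BMSC-Adipo and 4.06 in BMSC-Osteo (0.84). *Hif1a* therefore stood on the side of BMSC-Adipo with every probe set, while the 2-fold call rested on which probe set was read. Genes of its chromosome, 12, had a median difference of 0.33, and the brightest probe set lay at 0.54 relative to that median, a comparison added with the values in view.

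*Arnt*, the constitutive beta subunit that pairs with both alpha subunits, had near-equal levels in both lines. Its brightest probe set, 1419996_s_at, had 8.80 in BMSC-Adipo and 8.47 in BMSC-Osteo, a difference of 0.33. Of its 5 probe sets, 4 had differences of 0.18 to 0.41, and the remaining 1, at -0.06, was under the filter on both arrays. None was 2-fold apart.

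**Figure D1:**
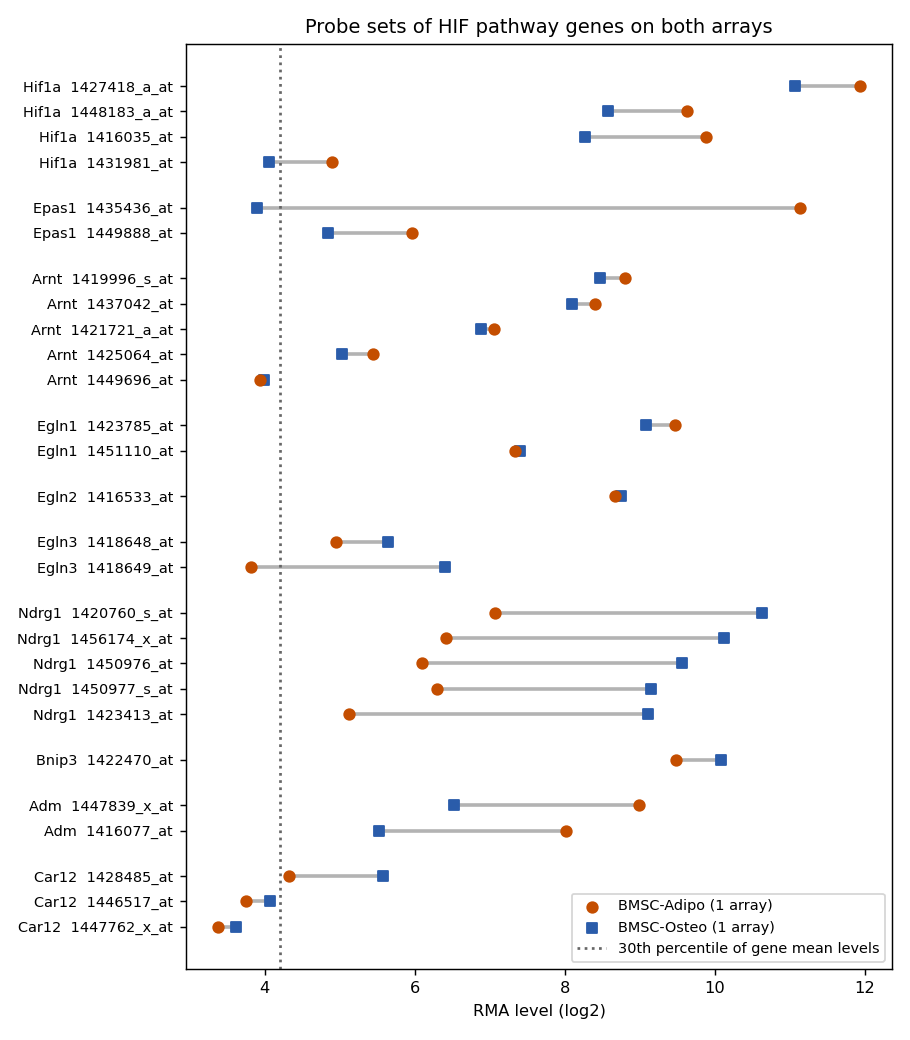
Level of each of the 27 probe sets of the 10 genes (x axis, RMA level in log2) on the array of BMSC-Adipo (circles) and of BMSC-Osteo (squares), 1 array each, joined by a line per probe set. All 5 probe sets of *Ndrg1* were higher in BMSC-Osteo, all 4 of *Hif1a* and both of *Epas1* and *Adm* were higher in BMSC-Adipo, and the 2 probe sets of *Epas1* stood 7.24 and 1.12 apart between the lines.

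The prolyl hydroxylases, which inactivate the alpha subunits when oxygen is present, differed among themselves. *Egln1* encodes PHD2, the main oxygen sensor of this family. It had 9.47 in BMSC-Adipo and 9.08 in BMSC-Osteo with the brighter probe set (0.39), and 7.33 in BMSC-Adipo and 7.40 in BMSC-Osteo with the other (-0.07), so its probe sets differed in sign and both lay within 2-fold. The median of genes on its chromosome, 8, was 0.41, and *Egln1* lay at -0.021 relative to it. *Egln2*, which encodes PHD1, had 8.68 in BMSC-Adipo and 8.75 in BMSC-Osteo with its single probe set (-0.07).

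*Egln3*, which encodes PHD3 and is itself a well-known HIF target, was the hydroxylase with a probe set at least 2-fold apart, lower in BMSC-Adipo. Its brighter probe set, 1418648_at, had 4.95 in BMSC-Adipo and 5.64 in BMSC-Osteo (-0.70). The other, 1418649_at, had 3.82 in BMSC-Adipo, under the filter, and 6.40 in BMSC-Osteo (-2.58). The choice of the probe set rested on means over both arrays of 5.29 and 5.11, and it decided whether *Egln3* counted as 2-fold apart. The mean of both differences was -1.64, and the brighter probe set lay at -1.03 relative to the median of its chromosome, 12.

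Bases upstream of the start of *Egln3* are shown because it is both hydroxylase and target, and because the core of a hypoxia response element is ACGTG or GCGTG. Capitals mark these letters on either strand (CACGT and CACGC are the same letters read on the other strand), and the sequence covers the 250 bases before the RefSeq start, chr12:54203875-54204124 of GRCm38.p6, minus strand.
Egln3: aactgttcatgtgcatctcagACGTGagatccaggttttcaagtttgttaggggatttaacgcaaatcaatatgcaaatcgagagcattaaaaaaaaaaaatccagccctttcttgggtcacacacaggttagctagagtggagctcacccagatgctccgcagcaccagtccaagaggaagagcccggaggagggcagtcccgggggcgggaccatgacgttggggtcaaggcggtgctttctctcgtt
A single match stood at 229 bases upstream of the start.

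Among the HIF-responsive genes, *Ndrg1* had the largest difference toward BMSC-Osteo. It encodes a cytoplasmic protein induced by hypoxia and by differentiation and known as a metastasis suppressor. Its brightest probe set, 1420760_s_at, had 7.07 in BMSC-Adipo and 10.6 in BMSC-Osteo, a difference of -3.55 (11.7-fold lower in BMSC-Adipo) that ranked 86 of 14497 genes toward BMSC-Osteo. The other 4 probe sets had levels of 5.12 to 6.42 in BMSC-Adipo and 9.11 to 10.1 in BMSC-Osteo, and differences of -3.99 to -2.86. All 5 thus passed the 2-fold rule in the same direction, with an SD of 0.42 among them, near the pooled value over all genes. *Ndrg1* had the most probe sets of any member past the rule. Of its family, *Ndrg4* (-0.73), *Ndrg2* (-0.08) and *Ndrg3* (0.03) lay within 2-fold.

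*Car12*, which encodes a carbonic anhydrase of the cell surface that helps to control pH, was also lower in BMSC-Adipo, but it was dim. Its brightest probe set, 1428485_at, had 4.32 in BMSC-Adipo and 5.57 in BMSC-Osteo (-1.26). The other 2 probe sets had 3.75 and 3.37 in BMSC-Adipo and 4.07 and 3.61 in BMSC-Osteo, all under the filter, with differences of -0.31 and -0.24. All 3 probe sets shared the direction, and the 2-fold call was lost with their mean (-0.60) and with 32 added on the linear scale (-0.62).

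*Bnip3*, which encodes a mitochondrial protein that promotes mitophagy at low oxygen, had 9.48 in BMSC-Adipo and 10.1 in BMSC-Osteo with its single probe set (-0.61, 1.52-fold lower in BMSC-Adipo). It lay within 2-fold. The 250 bases before its RefSeq start, chr7:138909507-138909756 of GRCm38.p6, minus strand, are shown because they held 5 matches to the core letters, with the same use of capitals.
Bnip3: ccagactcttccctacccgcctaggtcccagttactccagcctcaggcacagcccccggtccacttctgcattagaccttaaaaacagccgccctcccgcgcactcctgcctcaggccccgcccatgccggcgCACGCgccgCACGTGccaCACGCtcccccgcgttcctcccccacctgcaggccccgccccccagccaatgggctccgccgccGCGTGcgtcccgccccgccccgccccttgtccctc
The run CACGTG reads as ACGTG on both strands, so it counts as 2 of these matches, and it begins 108 bases upstream of the start.

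*Adm* was the responsive gene on the side of BMSC-Adipo. It encodes adrenomedullin, a secreted peptide that dilates vessels and acts on endothelium and bone. Probe set 1447839_x_at had 8.99 in BMSC-Adipo and 6.53 in BMSC-Osteo (2.46), and 1416077_at had 8.02 in BMSC-Adipo and 5.52 in BMSC-Osteo (2.50). The differences of both probe sets lay within 0.037 of each other. The difference of 2.46, 5.51-fold higher in BMSC-Adipo, ranked 224 of 14497 genes toward that line. The 250 bases before its RefSeq start, chr7:110627407-110627656 of GRCm38.p6, plus strand, are shown beside those of *Egln3*, since these genes lay on opposite sides.
Adm: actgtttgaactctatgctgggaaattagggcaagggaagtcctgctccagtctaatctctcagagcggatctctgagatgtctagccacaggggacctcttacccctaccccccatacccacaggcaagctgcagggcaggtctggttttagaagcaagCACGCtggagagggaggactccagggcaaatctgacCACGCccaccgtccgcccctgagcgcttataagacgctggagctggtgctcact
It held GCGTG at 2 sites, both on the other strand, and no ACGTG.

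Over the 10 members, all of which passed the brightness filter, 2 (*Epas1* and *Adm*) were at least 2-fold higher in BMSC-Adipo, 2 (*Ndrg1* and *Car12*) were at least 2-fold higher in BMSC-Osteo, and 6 lay within 2-fold. The same rule took 7.88% of all filtered genes on the side of BMSC-Adipo and 6.68% on that of BMSC-Osteo. At 1.5-fold the members numbered 3 and 4 on these sides (16.1% and 14.5% of all genes), and at 4-fold 2 and 1 (2.27% and 1.99%). After *Epas1*, *Adm* and *Ndrg1*, *Car12* ranked 648, *Egln3* 1661 and *Bnip3* 2021 toward BMSC-Osteo, and *Hif1a* 1413, *Egln1* 3343 and *Arnt* 3654 toward BMSC-Adipo, while *Egln2* (7889) stood near the middle. By probe set, 6 of 27 were at least 2-fold higher in BMSC-Adipo and 7 in BMSC-Osteo, against 5.51% and 4.61% of all single-gene probe sets, but probe sets of a gene read the same RNA and 5 of the 7 were those of *Ndrg1*. At 4-fold 3 and 6 probe sets were on these sides, against 1.43% and 1.32%, and at 1.5-fold 8 and 9, against 11.8% and 10.8%. The median of the absolute difference was 0.78 over the members and 0.34 over all genes past the filter. The members had no common direction, with a median difference of 0.13 against -0.025 over all genes. The 3 subunit genes had positive values with their brightest probe sets, and of the 4 responsive genes *Adm* alone did.

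**Figure D2:**
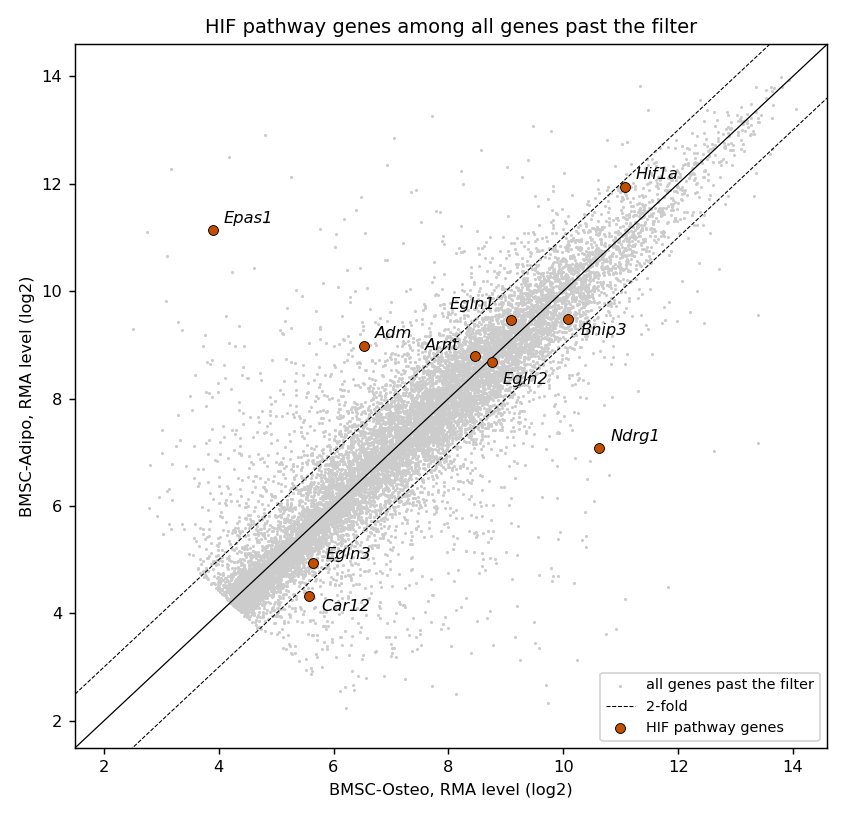
Level of each gene past the filter in BMSC-Adipo (y axis) and BMSC-Osteo (x axis), both as RMA level in log2, with 1 probe set per gene. Grey points are 14497 genes, labelled points the 10 members, the solid line is equality and the dashed lines are 2-fold. *Epas1* and *Adm* lie above the dashed band, *Ndrg1* and *Car12* below it.

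The RefSeq promoter table held 9 windows of 300 bases, from 250 before to 50 after the start, for 8 members, and none for *Epas1* or *Ndrg1*. At least 1 core match, ACGTG or GCGTG on either strand, was present in 8 of the 9 windows, against 43.8% of 32851 windows of the same length in the table. ACGTG occurred in 19.6% and GCGTG in 32.4% of all windows. Base composition moved with this count, since the member windows had a median G and C content of 59.3% and all windows 52.7%, and its part was not tested. *Car12*, the member without a match, lay on the side of BMSC-Osteo, and windows with matches belonged to genes on both sides (*Adm* and *Egln3*) and to genes near equality (*Egln2*, *Arnt*). A match is a run of letters and not a shown binding site.

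The wider machinery of oxygen sensing had no common direction. Of 20 genes of HIF hydroxylation and turnover, 19 lay within 2-fold, 10 had positive and 10 negative differences, and the median was -8.0e-05. On the side of BMSC-Adipo 5% of the list passed the rule, against 7.88% of all genes. On that of BMSC-Osteo it was 0%, against 6.68%, so most genes on the array lay within 2-fold too. *Os9* (1.02), whose product has been linked to both HIF-1 alpha and its hydroxylase, was the gene past the rule, and with the mean of its probe sets it was not. *Vhl* (0.40), which recognises hydroxylated alpha subunits, and *Hif1an* (0.25), the asparaginyl hydroxylase that blocks coactivator binding, lay within 2-fold, as did *Siah2* (-0.82), a ubiquitin ligase for hydroxylases, and *P4htm* (0.69), a transmembrane prolyl hydroxylase.

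Among 13 genes of the basic helix-loop-helix PAS family, to which the subunits belong, 2 were at least 2-fold higher in BMSC-Adipo and 1 in BMSC-Osteo, with a median of 0.08. These were 15.4% and 7.69% of the family, against 7.88% and 6.68% of all genes. *Sim2* (2.08), a developmental regulator, joined *Epas1* on the first side, and *Ahr* (-1.28), the aryl hydrocarbon receptor, which also pairs with *Arnt*, stood on the second. *Hif3a*, the remaining alpha subunit gene, differed by -0.54 with its brightest probe set. Its 6 probe sets spanned -0.54 to 0.40, with 3 of each sign. Of 15 coactivators and restrainers of HIF, 3 were at least 2-fold higher in BMSC-Adipo and 2 in BMSC-Osteo, with a median of 0.014. These were 20.0% and 13.3% of that list, against the same shares of all genes. The coactivators *Ncoa1* (2.61) and *Ncoa2* (1.04) and the deacetylase *Sirt1* (1.40) made up the first group, although other probe sets of *Ncoa1* and *Ncoa2* differed by as little as 0.07 and 0.00, and *Ruvbl2* (-1.12) and *Pkm* (-1.09) the second.

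Most matrix genes known to respond to HIF were lower in BMSC-Adipo. Of 13, 10 were at least 2-fold higher in BMSC-Osteo and 0 in BMSC-Adipo, where 6.68% and 7.88% of all genes were on these sides, and the median was -1.37, against -0.025 over all genes. The list was chosen with earlier results of these data known, so this contrast is a description. The collagen prolyl hydroxylases *P4ha1* (-1.10), *P4ha2* (-1.92) and *P4ha3* (-1.37), which use oxygen to stabilise the collagen helix, and the lysyl hydroxylases *Plod1* (-1.51) and *Plod2* (-1.28), which prepare collagen for crosslinking, were all on this side. *P4ha2* had 8.28 in BMSC-Adipo and 10.2 in BMSC-Osteo, and *Plod2* had 8.68 in BMSC-Adipo and 9.96 in BMSC-Osteo. Together with *Lox* (-1.48), the lysyl oxidase that crosslinks collagen, these genes were read by 11 probe sets, of which all were lower in BMSC-Adipo and 10 at least 2-fold. The largest difference was that of *Cthrc1* (-7.20), a secreted collagen-associated protein, and 9 of 12 remained past the rule without it, with a median of -1.33. The collagenase *Mmp9* (-2.46), *Col5a1* (-2.31) and fibronectin, *Fn1* (-1.05), were lower in BMSC-Adipo too, while *Mmp2* (0.86), *Mmp14* (0.78) and *Ctgf* (0.76) had positive differences within 2-fold, and these 3 were on the side of BMSC-Adipo with a 1.5-fold rule. These genes also belong to the matrix programme of osteoblasts, and osteoblast markers moved with them, at 5 of 6 higher in BMSC-Osteo with a log2 summed level of 10.7 in BMSC-Adipo and 12.9 in BMSC-Osteo. The part of the lineage in this difference was not tested.

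Glycolytic genes known as HIF targets leaned the same way with smaller differences. Of 25, 18 were lower in BMSC-Adipo, 7 of them at least 2-fold, and 1 was at least 2-fold higher, with a median of -0.48. On the 2-fold rule these were 28% of the list on the side of BMSC-Osteo and 4% on that of BMSC-Adipo. Of all genes 6.68% and 7.88% were on these sides. *Hk2* (-1.49), a hexokinase, of the enzymes that start glycolysis, had 7.77 in BMSC-Adipo and 9.25 in BMSC-Osteo. The other listed hexokinase, *Hk1*, went the other way within 2-fold, at 9.31 in BMSC-Adipo and 8.87 in BMSC-Osteo (0.44). *Pdk1* (-1.31), a kinase that inhibits pyruvate dehydrogenase, had 7.75 in BMSC-Adipo and 9.06 in BMSC-Osteo. The other listed kinase of this kind, *Pdk3*, went the other way within 2-fold, at 9.18 in BMSC-Adipo and 8.32 in BMSC-Osteo (0.87). Another probe set of *Pdk1* had a positive difference (0.25). *Ak4* (-2.40), an adenylate kinase of mitochondria, also had a probe set of positive sign (0.19). *Eno2* (-2.15), *Eno1* (-1.11), *Pkm* and *Pfkp* (-1.08) completed the group, which held 4 genes when the probe set with the highest difference was read. *Ppp1r3c* (3.19), which directs phosphatase to glycogen, was the gene on the side of BMSC-Adipo, at 8.33 in BMSC-Adipo and 5.14 in BMSC-Osteo.

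**Figure D3:**
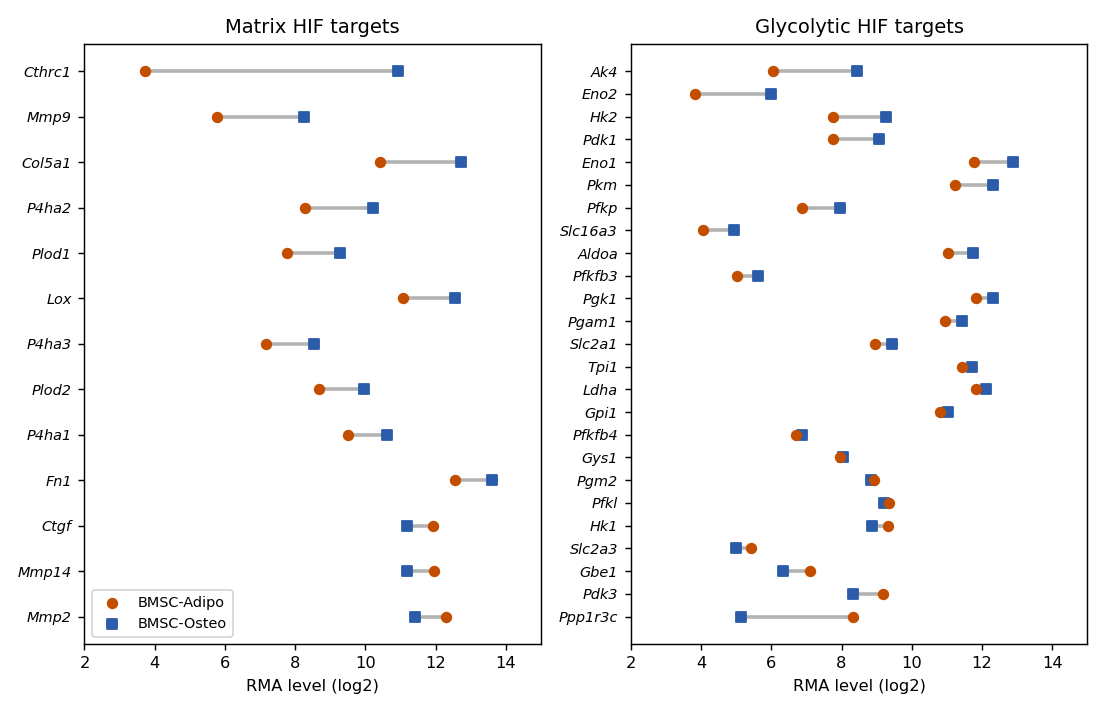
Levels (x axis, RMA level in log2) of 13 matrix genes and 25 glycolytic genes known as HIF targets, with 1 probe set per gene, in BMSC-Adipo (circles) and BMSC-Osteo (squares), 1 array each, sorted by difference. In the matrix list 10 genes were at least 2-fold higher in BMSC-Osteo and none in BMSC-Adipo, and in the glycolytic list 7 were at least 2-fold higher in BMSC-Osteo and 1, *Ppp1r3c*, in BMSC-Adipo. The same rule took 6.68% of all genes past the filter on the side of BMSC-Osteo and 7.88% on that of BMSC-Adipo.

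Vascular targets had no common direction. Of 21, 3 were at least 2-fold higher in BMSC-Adipo and 5 in BMSC-Osteo, with a median of -0.10. These were 14.3% and 23.8% of the list, against 7.88% and 6.68% of all genes. *Esm1* (6.79), a secreted proteoglycan of endothelium, and *Cxcl12* (2.48), a chemokine of the marrow niche, stood on the side of BMSC-Adipo with *Angptl4* (1.84), a lipase inhibitor. *Vegfc* (-4.47), a lymphatic growth factor, stood on the other. *Vegfa* (-0.43), the main vascular target of HIF, lay within 2-fold, as did *Kdr*, its receptor, with equal values on both arrays.

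In the remaining list of HIF targets 28 of 35 genes lay within 2-fold, 3 were at least 2-fold higher in BMSC-Adipo and 4 in BMSC-Osteo, and the median was -0.13. These were 8.57% and 11.4% of the list, against 7.88% and 6.68% of all genes. The imprinted growth factor *Igf2* led the first side, at 6.49 with its brightest probe set and 2.36 with the other. *Myc* (-2.55) and *Tfrc* (-1.98), the transferrin receptor, led the second, and *Zfp395* (1.35) was the other gene of the 4 largest.

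The relatives and partners of the responsive genes were divided. Of 9 genes of the adrenomedullin system, 3 were at least 2-fold higher in BMSC-Adipo and 3 in BMSC-Osteo. This was 33.3% on each side, against 7.88% and 6.68% of all genes. *Mme* (1.53), neprilysin, which cleaves the peptide, accompanied *Adm* and the receptor partner *Ramp2* (1.01) in BMSC-Adipo, and the scavenger receptor *Ackr3* (-1.39) was on the other side with the receptor partner *Ramp1* (-1.12). *Calcrl*, the receptor that the RAMP proteins serve, lay under the filter with its mean over both arrays. Its brightest probe set had 4.64 in BMSC-Adipo and 3.54 in BMSC-Osteo (1.10), and its probe sets spanned -0.18 to 1.10. Of 13 carbonic anhydrases, 3 were at least 2-fold higher in BMSC-Adipo and 3 in BMSC-Osteo, 23.1% of the list on each side. Those higher in BMSC-Adipo were *Car3* (5.13), *Car2* (3.88) and *Car13* (2.25), all of the cytosol. The probe sets of *Car3* spanned 1.55 to 5.13. Those higher in BMSC-Osteo were *Car6* (-4.06), a secreted form, *Car8* (-2.57) and *Car12*, a side that held 1 gene with the mean of probe sets. *Car9*, the carbonic anhydrase best known as a HIF target, differed by 0.05. In the BNIP and mitophagy list 14 of 16 genes lay within 2-fold and none was at least 2-fold higher in BMSC-Osteo. The 2 genes past the rule made up 12.5% of the list. *Fundc1* (1.10), a mitophagy receptor, and *Map1lc3b* (1.09), an autophagosome protein, were at least 2-fold higher in BMSC-Adipo, so *Bnip3* stood on the other side of 0 from them, and with the lowest probe set neither passed the rule.

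**Figure D4:**
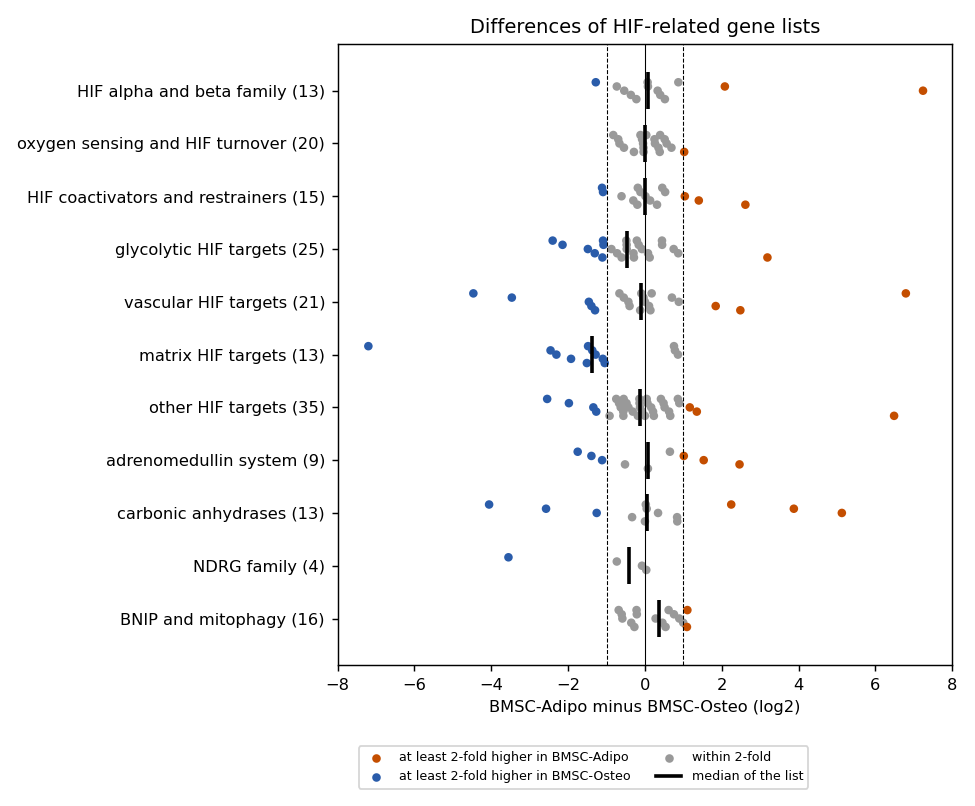
Difference of each gene past the filter in 11 HIF-related lists (x axis, BMSC-Adipo minus BMSC-Osteo in log2), with the number of genes in brackets. Points are genes, black bars are list medians and dashed lines are 2-fold, and the matrix list has the lowest median, at -1.37.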

How the data were processed

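RNA of both lines was measured on 1 Affymetrix array each. The authors deposited log2 levels per probe set, made with RMA in the oligo package (no version was given in the sources used here). RMA corrects background, normalizes the arrays to each other and summarizes probes, so a shift common to all genes would not be seen. The paper names the A version of the array, and the table holds 45101 probe sets. A column of the authors' own fold change was not used. The series matrix holds the same values (largest gap 0).

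Of the probe sets, 64 controls, 5368 without a gene and 1479 naming several genes were left out, which left 38190. Each gene was represented by the probe set of highest average level, and a brightness filter at the 30th percentile kept 14497 of 20706 genes. *Ep300*, *Gapdh*, *Loxl2*, *Bnip3l* and *Trf* were read only by left-out probe sets. In all 2096 probe sets had equal values on both arrays. Members and lists were chosen with earlier results of these data known, so genes such as *Cthrc1*, *Esm1* and *Igf2* were listed with their differences known, and list counts are descriptions. Named genes were all members, up to 4 genes per list with the largest absolute difference, and markers. Other named list genes, such as *Plod2*, *Pdk1*, *Vegfa* and *Car9*, were chosen after their values were seen, as was the subtraction of chromosome medians. Some list genes are not reported here by name. Protein comparisons were not made. The procedure was tested on simulated data with planted differences. The noise there was smaller than the spread between probe sets of a gene here. All probe sets of a gene carried the same planted difference, so this checked the calculation and not the calls. Calculations used Python 3.11.15, numpy 2.4.6, pandas 2.3.3, statsmodels 0.14.6 and matplotlib 3.10.9. Promoter sequences came from RefSeq (GRCm38.p6). The number of arrays limits the precision.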

Additional observations from a re-analysis of the deposited data

How the results depend on the processing

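Of 90 values of the members' differences under other settings, 76 moved by less than 0.40, the pooled SD within genes. None of the members past the 2-fold rule changed sign. Some of the 90 could hardly move, so the tally overstates stability. The series matrix holds identical values, and subtracting the median of -0.025 shifted every gene alike. *Egln2* and *Bnip3* have a single probe set, so the choice of probe set could not change them. Sign changes occurred for *Arnt* (-0.057) and *Egln1* (-0.071) with their lowest probe sets and, relative to chromosome medians (added after seeing the data), for *Egln1* (-0.021) and *Egln2* (0.0041). The count of members at least 2-fold higher in BMSC-Osteo, 2 in the main setting, became 1 with the highest probe set, with a filter at the 50th percentile, with a 4-fold rule and with an offset of 32, and 4 with a 1.5-fold rule. Probe sets at least 2-fold higher in BMSC-Osteo numbered 4 of 18 when only probe sets without _a_, _s_ or _x_ in their names were used, and those higher in BMSC-Adipo numbered 3 with a 4-fold rule. No paired analysis was possible because each line had 1 array.

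Of 121 list medians, 86 moved by less than that SD divided by the root of the list size. The series matrix and the median shift are among the settings of these list medians and of the list counts too. With the mean of probe sets the PAS family had 0.25, vascular targets -0.22 and mitophagy 0.15. With the lowest probe set these had -0.057, -0.30 and 0.21, and matrix targets -1.51. With the highest probe set the PAS family had 0.41, oxygen sensing 0.14, coactivators 0.24, glycolytic targets -0.28 and other targets 0.041. With only probe sets without _a_, _s_ or _x_ the PAS family had 0.37, oxygen sensing 0.14, other targets 0.023, the adrenomedullin system 0.65, carbonic anhydrases 0.59, the NDRG family -1.77 and mitophagy 0.18. There the NDRG value rested on 2 genes, against 4 in the main setting. Without a filter the PAS family had 0.20, the adrenomedullin system 0.36 and mitophagy 0.14. With a filter at the 50th percentile the PAS family had -0.22, glycolytic targets -0.30, vascular targets -0.25, the adrenomedullin system 1.53, carbonic anhydrases 3.06 and the NDRG family -0.73. Of these, the last 3 medians rested on 3, 4 and 3 genes, against 9, 13 and 4 in the main setting. With an offset of 32 glycolytic targets had -0.34 and matrix targets -1.22. With chromosome medians subtracted glycolytic targets had -0.33, matrix targets -1.20, carbonic anhydrases 0.17, the NDRG family -0.69 and mitophagy 0.24. Of 286 list counts under other settings, 238 stayed within 1.5 times. On the side of BMSC-Osteo, vascular targets (5) numbered 2 with the 50th percentile filter or a 4-fold rule and 3 with an offset of 32 or without _a_, _s_ and _x_ probe sets, other targets (4) 1 without those probe sets, and the adrenomedullin system (3) 1 with the offset or the 50th percentile filter. With a 4-fold rule matrix targets had 3 genes and glycolytic targets 2 on the side of BMSC-Osteo, and glycolytic targets had 4 there with the highest probe set. Levels under the filter, such as that of *Epas1* in BMSC-Osteo, lie near the arrays' floor, where a fold is poorly set.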

Other observations

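The authors' annotation marks 110 genes as responding to hypoxia in the Gene Ontology, a list that was added after the members' values were seen. Of these, 95 passed the filter. On the 2-fold rule 10 were at least 2-fold higher in BMSC-Adipo and 9 in BMSC-Osteo (10.5% and 9.47% of the list, against 7.88% and 6.68% of all filtered genes), and the median was -0.023. *Vegfd* (3.75), a growth factor of lymphatic vessels, had 11.3 in BMSC-Adipo and 7.53 in BMSC-Osteo, and *Casp1* (3.40), an inflammatory protease, had 7.23 in BMSC-Adipo and 3.83 in BMSC-Osteo. On the other side *Ptgis* (-4.85), prostacyclin synthase, had 4.72 in BMSC-Adipo and 9.57 in BMSC-Osteo, and *Ednra* (-3.06), an endothelin receptor, had 4.17 in BMSC-Adipo and 7.22 in BMSC-Osteo. The probe sets of *Ednra* spanned -3.99 to -0.45. The vascular growth factors thus stood on both sides, with *Vegfd* higher in BMSC-Adipo and *Vegfc* (-4.47) higher in BMSC-Osteo. These genes were named after their values were seen.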
